A study of Homo sapiens with 36 samples.

Results

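A set of 11 transcript IDs of 8 cytoskeletal genes was followed along a ribosome gradient in HUES6 cells, a line of human embryonic stem cells that is long established. The genes are TMSB4X and TMSB10 (thymosins beta-4 and beta-10), PFN1 (profilin), CFL1 (cofilin), ACTB (beta-actin), TUBA1B and TUBB (alpha- and beta-tubulin) and VIM (vimentin). The IDs were chosen by gene name with their levels in these same libraries in view, so the levels are a description and no p-value below is independent evidence for the choice. All 11 IDs were among the 223367 transcript IDs of the deposited table, and 10 of them passed the filter on low values (at least 1 TPM in at least 3 libraries), as did 51052 transcripts in all. The groups were cells carrying a knockout of the RNA-binding protein RBPMS (RBPMS KO, here KO) and unmodified cells (WT). Both were grown in FTDA, a defined medium for pluripotent stem cells, and both were treated with cycloheximide, which holds ribosomes on mRNAs, at 100 ng/ml for 5 min. Each genotype was represented by 3 cultures, and each culture gave the unfractionated lysate (Input) and 5 gradient fractions, named 40S, 80S, disome, Polysome1 and Polysome2. This gave 36 libraries in 12 groups of 3. The labels name the cultures by a number only and do not say whether they were separate clones, days or passages, so p-values measure the spread between these cultures, which may be technical. Each library was made from an equal amount of RNA with a poly(A)-selecting kit, and values are in TPM (transcript abundance per length, scaled to the same total in every library). A value therefore gives the share of a transcript within its fraction, not the amount of that mRNA in the fraction, and a lower share cannot be told apart from a higher share of other RNAs. In bulk samples, fewer cells of a type and less RNA per cell cannot be told apart either.

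Thymosins bind actin monomers and hold them in reserve, profilin loads monomers onto growing filament ends, and cofilin severs and disassembles old filaments, so these small proteins together set how much actin is polymerised. Alpha- and beta-tubulin pair into the dimers of microtubules, and vimentin forms intermediate filaments. In a polysome gradient an mRNA moves further the more ribosomes it carries. The number it can carry depends on the length of its coding sequence, and thymosins have very short coding sequences while actin, the tubulins and vimentin have much longer ones.

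The table of promoters from RefSeq (build GRCh38.p14) held 7 of the 8 genes, with 2 starts for TUBB. ACTB had no entry and is named only. Printed are the last 60 bases before the start of the thymosin genes, the members with the highest levels, and of TUBA1B, a member whose level differed strongly among the KO cultures. Capitals mark GGGCGG on either strand (read as CCGCCC on the other one), and also TATAA.
TMSB4X, chrX:12975050-12975109, plus strand: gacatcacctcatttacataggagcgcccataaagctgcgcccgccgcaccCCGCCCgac
TMSB10, chr2:84905596-84905655, plus strand: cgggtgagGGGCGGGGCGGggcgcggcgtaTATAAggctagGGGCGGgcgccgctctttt
TUBA1B, chr12:49131396-49131455, minus strand: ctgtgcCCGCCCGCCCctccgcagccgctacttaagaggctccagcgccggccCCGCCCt
Both strands of the 250 bases before each start were searched for 4 motifs, overlapping matches included, namely the GC box GGGCGG, the TATA-like TATAA, the CCAAT box and the CArG box. GGGCGG was present before every one of the 8 matched starts, and in 42.6% of all 35116 promoters of the table. TATAA was present for 2 genes, TMSB10 and VIM, against 18.9% of all promoters. CCAAT was present for 2 genes, CFL1 and TUBB at 1 of its starts, against 32% of all promoters. The CArG box, the motif of serum response factor, was found in none of the 8 windows and in 1.16% of all promoters.

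Libraries differed beyond genotype and fraction. Between 9867 and 31380 transcripts reached 1 TPM in the KO libraries, against 8956 to 38389 in the WT libraries. KO cultures 1 and 2 had at most 21914 in any of their 12 libraries, while KO culture 3 had a median of 30722. In the disome library of KO culture 1, 9867 transcripts reached 1 TPM and the 10 most abundant transcripts took 70.5% of all TPM. The TPM of the added control RNAs (ERCC) had a median of 329.2 in KO libraries and 20.3 in WT libraries. The WT 40S library of culture 3 also stands apart in the members, as given below. Calls of members that rest on these libraries are given with and without them. Percentages along the gradient, flagged ratios between fractions and correlations of group means hold all libraries. The table holds no gene names, so neither RBPMS itself nor stem cell markers were checked here.

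TMSB4X, TMSB10, ACTB, PFN1 and CFL1 were among the most abundant transcripts of the table, with mean levels over the 36 libraries of 6321, 3403, 1874, 1438 and 972.03 TPM. TUBA1B averaged 340.73 TPM, TUBB 94.0 TPM and VIM 62.3 TPM. Nearly all of the TMSB4X signal lay on ENST00000451311, since the rarer ID ENST00000380636 averaged 3.70 TPM. ACTB was read from ENST00000646664, and its rarer ID ENST00000331789 averaged 17.0 TPM. VIM was read from ENST00000224237, while its rarer ID ENST00000544301 was above 0 in 5 of 36 libraries, reached 0.935 TPM and was not tested. TMSB10 (ENST00000233143), PFN1 (ENST00000225655), CFL1 (ENST00000308162), TUBA1B (ENST00000336023) and TUBB (ENST00000327892) had 1 ID each. The TUBB values were identical to those of 5 other IDs in all 36 libraries, so they stand for a sequence that the table lists 6 times. All TUBB levels given here, and the sums over members, hold 1 of these 6 IDs and not their sum. They may therefore understate TUBB, and its level cannot be ranked against that of TUBA1B.

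Both thymosins were most abundant in the disome fraction of WT cells, and their levels there were lower in every KO culture. In the disome fraction TMSB4X was at 313, 5158 and 6013 TPM in KO cultures 1, 2 and 3, against 29069, 23134 and 16133 TPM in WT cultures 1, 2 and 3. TMSB10 there was at 342.45, 3125 and 5019 TPM in the KO cultures, against 11837, 12535 and 10436 TPM in the WT cultures. Every KO value was below every WT value for both genes, also in KO cultures 2 and 3. How many of all tested transcripts had groups without overlap was not counted, here or in any comparison below. A lack of overlap is therefore not shown to be particular to the members. TMSB4X was the most abundant transcript of the whole library in the disome fraction of WT cultures 1 and 2. In KO cultures 2 and 3 the disome was also the gradient fraction with the most TMSB4X, but the highest gradient fraction exceeded the lowest by 1.76 and 2.67 times there, against 10.9 to 26.4 times in WT cultures. In KO culture 1 the 80S fraction was highest and the disome lowest, 8.97 times apart.

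Next to the disome, in Polysome1, TMSB4X was at 2082, 3419 and 5618 TPM in KO cultures, against 16437, 14197 and 11286 TPM in WT cultures. TMSB10 in Polysome1 was at 1608, 2321 and 3593 TPM in KO cultures, against 6089, 6196 and 5548 TPM in WT cultures. The groups again did not overlap for either thymosin. In the heavier Polysome2 the TMSB4X levels of the genotypes overlapped. TMSB4X was at 2456, 2935 and 2255 TPM in KO cultures, against 2382, 2121 and 2633 TPM in WT cultures. TMSB10 in Polysome2 was at 1560, 2002 and 1317 TPM in KO cultures, against 1067, 929.27 and 1004 TPM in WT cultures, so that all 3 KO values lay above the WT values.

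In the unfractionated Input the thymosins overlapped between genotypes. TMSB4X was at 3530, 5653 and 6662 TPM in KO Input and at 6039, 6647 and 5364 TPM in WT Input. TMSB10 was at 1734, 3611 and 2853 TPM in KO Input and at 2504, 2507 and 1546 TPM in WT Input. In the 80S fraction the WT means of both were higher, with overlap. TMSB4X was at 2808, 3948 and 5661 TPM in KO cultures and at 7082, 4961 and 8467 TPM in WT cultures, while TMSB10 was at 1561, 3278 and 4512 TPM in KO cultures and at 4155, 4192 and 5422 TPM in WT cultures. In the 40S fraction TMSB4X was at 1471, 3235 and 4134 TPM in KO cultures and at 1412, 2234 and 612 TPM in WT cultures. Here the KO values reached higher than the WT values, with overlap.

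Expressed as a percentage of the TPM summed over the 5 gradient fractions of each culture, the disome held 18.8 ± 13.4% of TMSB4X in KO cultures and 47.5 ± 5.5% in WT cultures (SD, n = 3 each). For TMSB10 the disome held 20.4 ± 13.2% in KO cultures and 47.7 ± 3.7% in WT cultures. The KO means join unlike cultures. In KO cultures 1, 2 and 3 the disome held 3.43, 27.6 and 25.4% of TMSB4X, and 5.90, 23.8 and 31.6% of TMSB10. Since every fraction is scaled to the same total, these percentages compare shares and are not a distribution of molecules. Polysome2 held 17.4 ± 8.8% of TMSB4X in KO cultures against 5.2 ± 1.4% in WT cultures. By culture this was 26.9, 15.7 and 9.52% in KO cultures 1, 2 and 3.

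**Figure D1:**
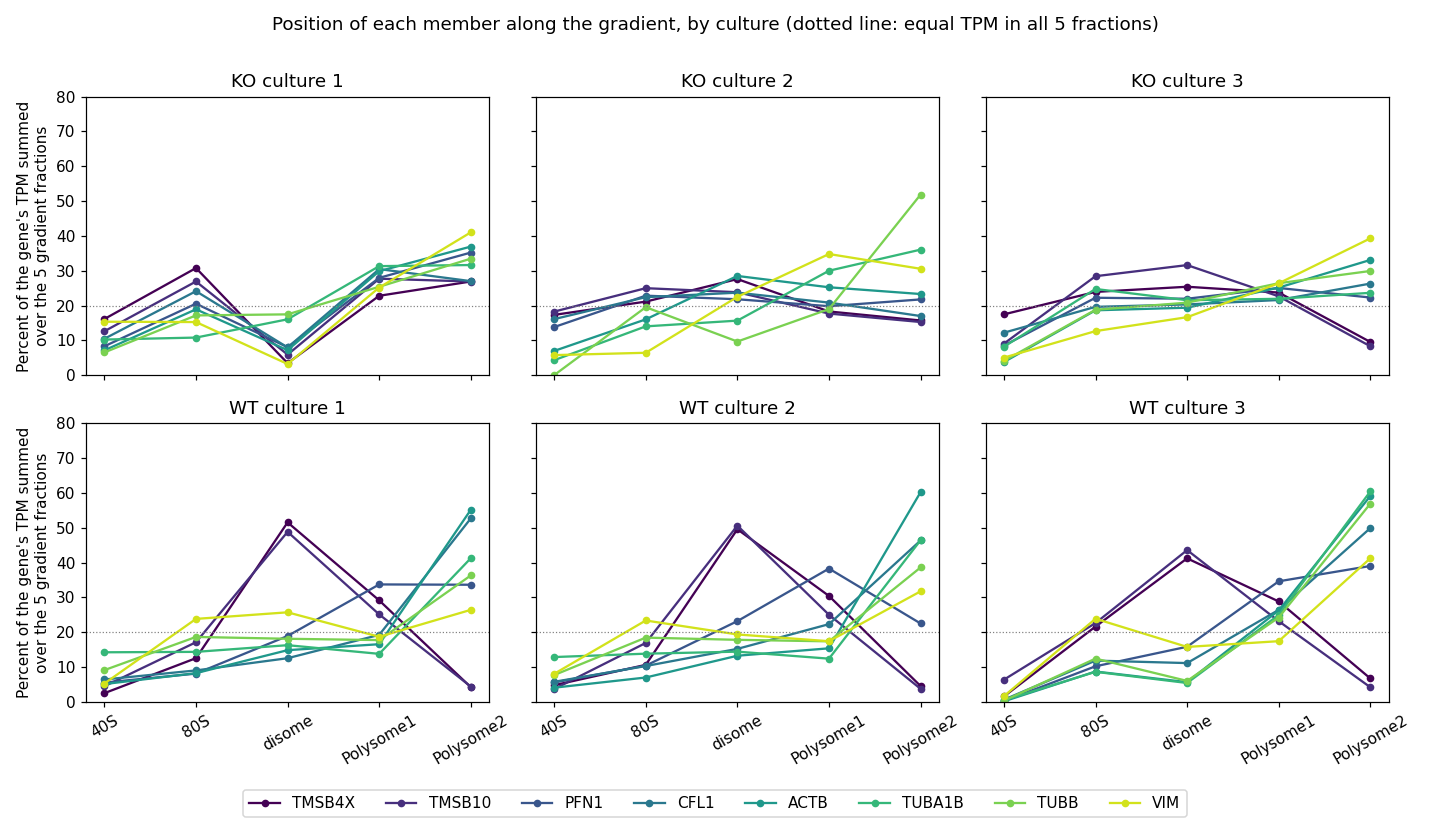
Percentage of each gene's TPM, summed over the 5 gradient fractions, that was found in each fraction, with 1 panel per culture (KO above, WT below) and 1 line per gene; the dotted line marks an equal TPM in all fractions. In the 3 WT cultures TMSB4X and TMSB10 peak in the disome and CFL1, ACTB and TUBA1B in Polysome2, and in the KO panels the disome holds 18.8 ± 13.4% of TMSB4X and 20.4 ± 13.2% of TMSB10 (SD, n = 3). KO culture 1 stands apart there, with 3.43% of TMSB4X and 5.90% of TMSB10 in the disome.

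PFN1 came next along the WT gradient. In Polysome1 it was at 134, 284 and 2103 TPM in KO cultures, against 3978, 4673 and 3711 TPM in WT cultures. In Polysome2 it was at 168, 312 and 1872 TPM in KO cultures, against 3968, 2749 and 4183 TPM in WT cultures. The KO values lay below all WT values in both polysome fractions. The WT means of Polysome1 and Polysome2, 4121 and 3633 TPM, did not differ beyond the spread between cultures, and both exceeded the disome mean of 2253 TPM, whose range overlapped that of Polysome2. In Input PFN1 was at 125, 569 and 1301 TPM in KO cultures, against 1605, 1663 and 1495 TPM in WT cultures.

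CFL1 and ACTB were most abundant at the heavy end. CFL1 in Polysome2 was at 211, 373 and 1966 TPM in KO cultures, against 3598, 3346 and 2988 TPM in WT cultures, with no overlap. Its WT mean in Polysome2, 3310 TPM, exceeded that in Polysome1, 1502 TPM, with separate ranges. CFL1 levels in the lighter fractions overlapped between genotypes, with 80S means of 715.5 TPM in KO and 689.9 TPM in WT, and disome means of 700.1 TPM in KO and 874 TPM in WT.

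ACTB in Polysome2 was at 286, 741 and 5245 TPM in KO cultures, against 6957, 8540 and 3827 TPM in WT cultures, so that KO culture 3 lay inside the WT range. Polysome2 held 58.2 ± 2.7% of the gradient TPM of ACTB in WT cultures, with a lowest value of 55.2%, and 31.1 ± 7.0% in KO cultures, with a highest value of 36.9%. These shares did not overlap. In Input ACTB was at 215, 812 and 3243 TPM in KO cultures, against 3425, 3477 and 3217 TPM in WT cultures.

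The tubulins followed ACTB in the WT gradient, at lower levels. TUBA1B in Polysome2 was at 18.0, 21.3 and 739.8 TPM in KO cultures, against 801, 968 and 492 TPM in WT cultures. TUBB in Polysome2 was at 8.22, 6.88 and 265 TPM in KO cultures, against 247, 294 and 155 TPM in WT cultures. KO cultures 1 and 2 were far below every WT value, and KO culture 3 was within the WT range. For both tubulins Polysome2 was the highest gradient fraction in all 3 WT cultures. The WT Input mean of TUBA1B, 1055 TPM, was higher still than its Polysome2 mean of 753 TPM.

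VIM had the lowest mean level of the 8 genes. In Polysome2 it was at 13.7, 38.1 and 261 TPM in KO cultures, against 115, 107 and 29.9 TPM in WT cultures. In Input it was at 6.08, 32.2 and 179 TPM in KO cultures, against 149, 148 and 61.9 TPM in WT cultures. WT culture 3 was the lowest WT culture for VIM in all 6 kinds of library. Among neighbouring WT fractions in the order of VIM means, none had ranges that were separate.

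**Figure D2:**
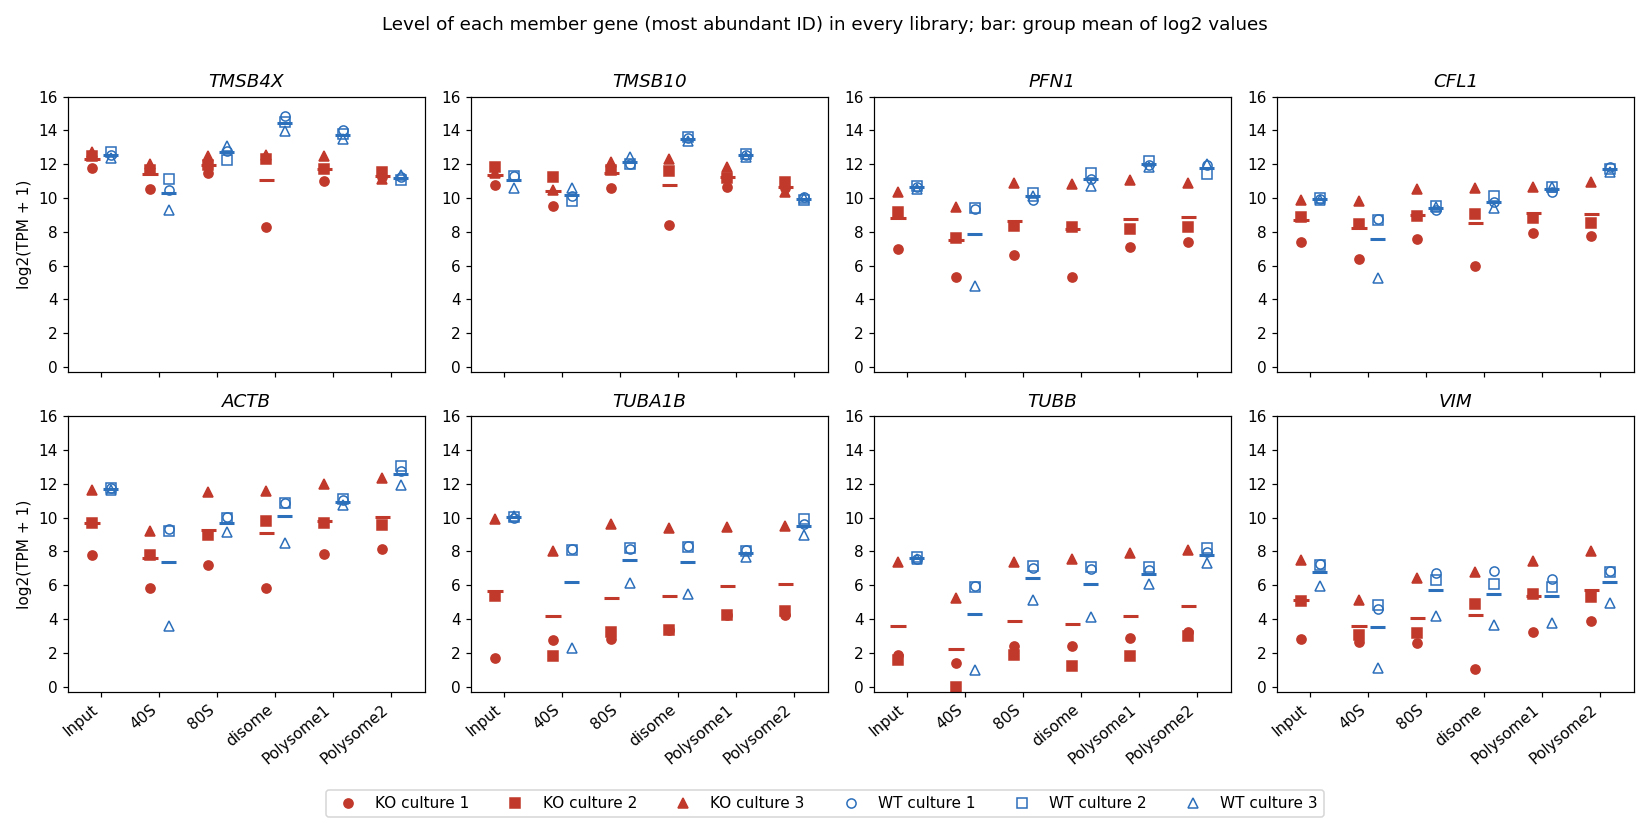
Level of each gene's most abundant ID as log2(TPM + 1) in all 36 libraries, by fraction along the gradient, with KO (filled) left of WT (open), 1 symbol per culture and a bar at the mean of 3 log2 values. The thymosins separate by genotype in the disome and Polysome1, and the tubulins separate KO cultures 1 and 2 from KO culture 3 in every fraction.

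Summed over the 11 IDs, the members took 0.0834%, 1.01% and 1.85% of all TPM in the KO disome libraries, against 4.64%, 4.20% and 2.94% in the WT disome libraries. In Input they took 0.580%, 1.12% and 1.63% in KO cultures, against 1.59%, 1.67% and 1.39% in WT cultures. The share in WT disome was 2.51 ± 0.40 times that in WT Input of the same culture (SD, n = 3).

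Within KO, the cultures did not behave alike, and the size of the split differed by gene. In the Input of KO cultures 1 and 2, TUBA1B was at 2.23 and 40.8 TPM and TUBB at 2.60 and 2.02 TPM. In the Input of KO culture 3, TUBA1B was at 978 TPM and TUBB at 167 TPM, close to the WT values of 1021, 1031 and 1112 TPM for TUBA1B and 189, 199 and 186 TPM for TUBB. Over all 12 libraries of KO cultures 1 and 2, TUBA1B ranged between 2.23 and 40.8 TPM and TUBB did not exceed 8.22 TPM. The thymosins did not split this way, since TMSB4X had a median of 3085 TPM over those 12 libraries and 5640 TPM over the 6 libraries of KO culture 3.

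The ratio of a gene to TMSB10 in the same library does not depend on how the library was scaled. TUBA1B over TMSB10 lay between 0.00106 and 0.0267 in the 12 libraries of KO cultures 1 and 2, with a median of 0.00779. It lay between 0.134 and 0.562 in KO culture 3, with a median of 0.184. Over the 18 WT libraries it lay between 0.00256 and 1.04, with a median of 0.0680. The WT disome libraries, at 0.0267, 0.0240 and 0.00423, lay at or within the range of KO cultures 1 and 2. So did the 80S and 40S libraries of WT culture 3, at 0.0130 and 0.00256. ACTB over TMSB10 lay between 0.0754 and 0.370 in KO cultures 1 and 2, between 0.415 and 3.98 in KO culture 3, and between 0.00732 and 9.19 in WT, with a median of 0.348. PFN1 over TMSB10 lay between 0.0542 and 0.158 in KO cultures 1 and 2 (median 0.10), had a median of 0.476 in KO culture 3, and lay between 0.0172 and 4.17 in WT (median 0.647). TMSB4X over TMSB10 varied far less, with medians of 1.52, 1.64 and 2.26 in these sets. Ratios of TUBA1B, ACTB and PFN1 to TMSB10 in KO cultures 1 and 2 were below every value of KO culture 3.

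WT culture 3 also had low values in some fractions. In the 40S fraction of WT culture 3, PFN1 was at 26.2 TPM, CFL1 at 37.6, ACTB at 11.2, TUBA1B at 3.91 and TUBB at 0.980, against 655 and 681 TPM of PFN1, 439 and 416 of CFL1, 645 and 578 of ACTB, 277 and 268 of TUBA1B, and 62.1 and 58.6 of TUBB in WT cultures 1 and 2. TMSB10 was not low in it, at 1526 TPM against 1089 and 912 TPM in the other WT 40S libraries. Its ratio of TUBA1B to TMSB10, 0.00256, was the lowest of the 18 WT libraries. It also had the fewest transcripts at 1 TPM or more among the WT 40S libraries, 8956 against 14712 and 15949. In the disome of WT culture 3, ACTB was at 367 TPM, against 1873 and 1880 TPM in WT cultures 1 and 2, and TUBA1B at 44.2 TPM, against 316 and 301 TPM. In its 80S fraction TUBA1B was at 70.2 TPM, against 279 and 289 TPM, and TUBB at 33.9 TPM, against 127 and 140 TPM. The part of the number of detected transcripts in these differences between cultures was not tested.

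**Figure D3:**
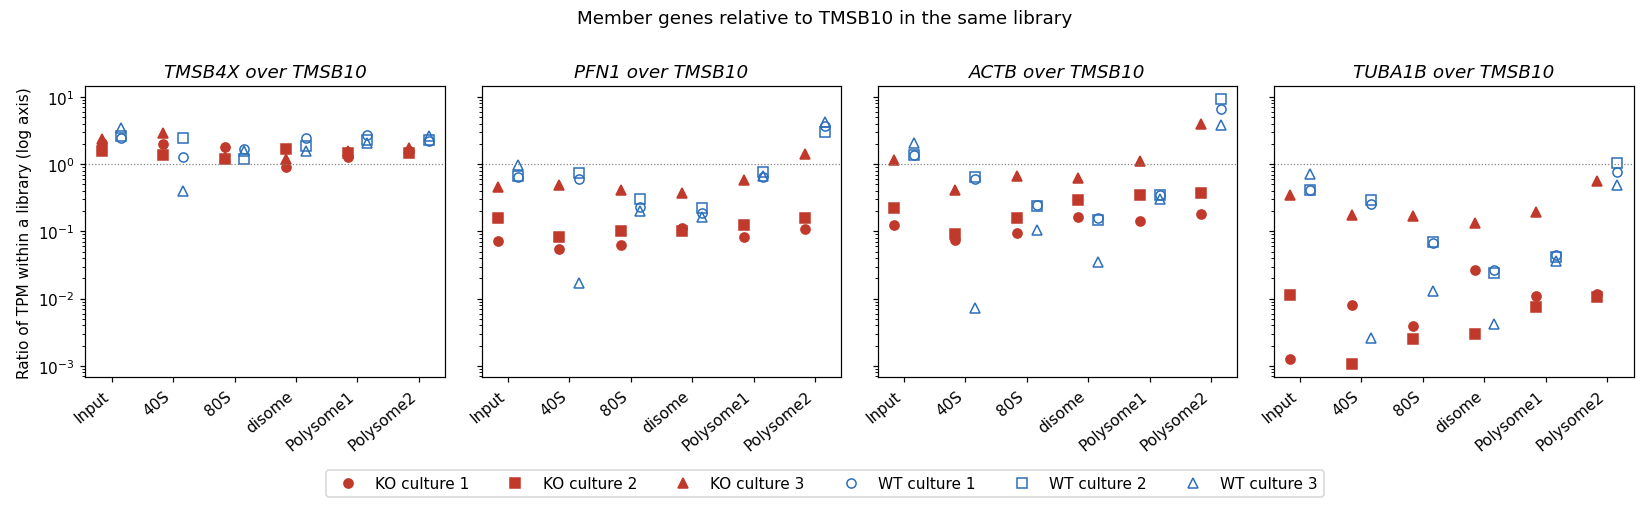
TPM of TMSB4X, PFN1, ACTB and TUBA1B divided by the TPM of TMSB10 in the same library, on a log axis, by fraction, with KO (filled) left of WT (open) and 1 symbol per culture. TMSB4X over TMSB10 lies between 0.401 and 3.47 in all libraries, while TUBA1B over TMSB10 lies between 0.00106 and 0.0267 in KO cultures 1 and 2 and is at or above 0.134 in KO culture 3.

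The KO and WT cultures were compared within each fraction with limma, fitted to all tested transcripts and all 36 libraries on the log2(TPM + 1) scale, with p-values adjusted over all 51052 transcripts. Because of the added 1, fold changes of transcripts at low TPM come out too small on this scale. In the disome both thymosins fell in KO. The log2 fold change of TMSB4X was -3.37 (SE 0.66, limma adjusted p = 0.00956), with a KO mean of 3828 TPM and a WT mean of 22778 TPM. That of TMSB10 was -2.72 (SE 0.60, limma adjusted p = 0.0188), with a KO mean of 2829 TPM and a WT mean of 11603 TPM. These were 2 of the 10 tested members, where 2.74% of all tested transcripts fell in this comparison. Both estimates stayed below 0 under every scaling tried, with the smallest differences, -2.33 and -1.68, under median-of-ratios scaling, where TMSB10 no longer passed (limma adjusted p = 0.0939) and 0.157% of all transcripts did. The other 8 did not pass, among them PFN1 at -2.96 (SE 1.29, limma adjusted p = 0.179).

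The calls in the disome were lost without single cultures, while the estimates of both thymosins stayed below 0 and calls over the whole table fell too. Without the disome library of KO culture 1, neither thymosin passed and 0.118% of all transcripts did, with log2 fold changes of -1.99 for TMSB4X (limma adjusted p = 0.0765) and -1.55 for TMSB10 (limma adjusted p = 0.176). Without all libraries of KO culture 2, TMSB4X was at -4.01 (limma adjusted p = 0.0553) and TMSB10 at -3.14 (limma adjusted p = 0.0820), where 0.0548% of all transcripts passed. Without WT culture 1 they were at -3.18 and -2.71 (limma adjusted p = 0.133 and 0.173, 0.182% passing), and without WT culture 2 at -3.34 and -2.66 (limma adjusted p = 0.0943 and 0.149, 0.178% passing). Without all libraries of KO culture 1, TMSB4X passed (limma adjusted p = 0.0391) and TMSB10 did not (limma adjusted p = 0.0502), where 0.149% of all transcripts passed. Without WT culture 3 both passed, where 2961 of all 51052 transcripts fell and 14 rose. Both also passed without KO culture 3, where 30.1% of all transcripts did. KO culture 3 alone against WT gave log2 fold changes of -1.88 for TMSB4X and -1.21 for TMSB10, neither of which passed, with 0.174% of all transcripts passing. That fit holds 1 KO library per fraction, which is assumed to vary like the other groups. A fit to the 6 disome libraries alone gave an adjusted p of 0.54 for both with limma, and 0.00% of all 51052 transcripts passed.

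In Input no member passed, while 20.0% of all tested transcripts did, and 2 members had an unadjusted limma p under 0.05. These were TUBA1B, with a log2 fold change of -4.37 (SE 2.05, limma adjusted p = 0.129), and TUBB, with -3.98 (SE 1.84, limma adjusted p = 0.124). With culture as a block, both passed (limma adjusted p = 0.0336 and 0.0248), as did 23.0% of all transcripts. That block assumes the same correlation of 0.326 within a culture for every transcript, while the tubulins split by KO culture in every fraction. In a fit to the Input libraries alone neither tubulin passed (limma adjusted p = 0.1875 and 0.1666). Of all 51052 transcripts, 35 fell and 5 rose in that fit. TMSB4X and TMSB10 in Input were at -0.23 (SE 0.66) and 0.29 (SE 0.60), against a median of -0.51 over all tested transcripts.

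In the 40S fraction no member passed, none had an unadjusted limma p under 0.05, and 0.0235% of all transcripts passed. TMSB4X was at 1.12 (SE 0.66, limma adjusted p = 1). Without the WT 40S library of culture 3, a setting added after the data had been seen, it was at 0.60, and 0 members and 0.0451% of all transcripts passed with limma. In the 80S fraction no member passed, 1 had an unadjusted limma p under 0.05 and 0.599% of all transcripts passed. That member was the rarer ACTB ID, at 2.01 (SE 0.70, limma adjusted p = 0.154). Its levels in the 80S fraction were 42.4, 46.0 and 14.0 TPM in KO cultures, against 8.99, 5.87 and 5.88 TPM in WT cultures, with no overlap, while the main ACTB ID overlapped. Fits to the 40S libraries alone, or to the 80S libraries alone, called 0 of all transcripts.

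In Polysome1 no member passed, 4 had an unadjusted limma p under 0.05, and 5.42% of all transcripts passed. TMSB4X was at -2.01 (SE 0.66, limma adjusted p = 0.0635), PFN1 at -3.25 (SE 1.29, limma adjusted p = 0.107), TMSB10 at -1.32 (SE 0.60, limma adjusted p = 0.148) and the rarer ACTB ID at 2.19 (SE 0.70, limma adjusted p = 0.0593). With culture as a block, TMSB4X, PFN1 and the rarer ACTB ID passed (limma adjusted p = 0.0449, 0.0393 and 0.0464), as did 11.4% of all transcripts. In a fit to the Polysome1 libraries alone these IDs did not pass (limma adjusted p = 0.1421, 0.1725 and 0.1261), and 0 of all transcripts did. The main and the rarer ACTB ID thus had log2 fold changes of opposite sign here, -1.13 and 2.19. The table does not show how reads were divided between the 2 IDs.

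In Polysome2 no member passed, 2 had an unadjusted limma p under 0.05, and 5.52% of all transcripts passed. CFL1 was at -2.62 (SE 1.03, limma adjusted p = 0.112), PFN1 at -2.95 (SE 1.29, limma adjusted p = 0.147), ACTB at -2.56 (SE 1.42, limma adjusted p = 0.251) and TUBA1B at -3.42 (SE 2.05, limma adjusted p = 0.288). With culture as a block, CFL1 passed (limma adjusted p = 0.0384), as did 11.6% of all transcripts. In a fit to the Polysome2 libraries alone CFL1 did not pass (limma adjusted p = 0.2439), and 0 of all transcripts did. TMSB4X was at 0.10 and TMSB10 at 0.68, neither passing. In KO culture 3 alone against WT, with 1 KO library, TUBA1B in Polysome2 was at 0.03.

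**Figure D4:**
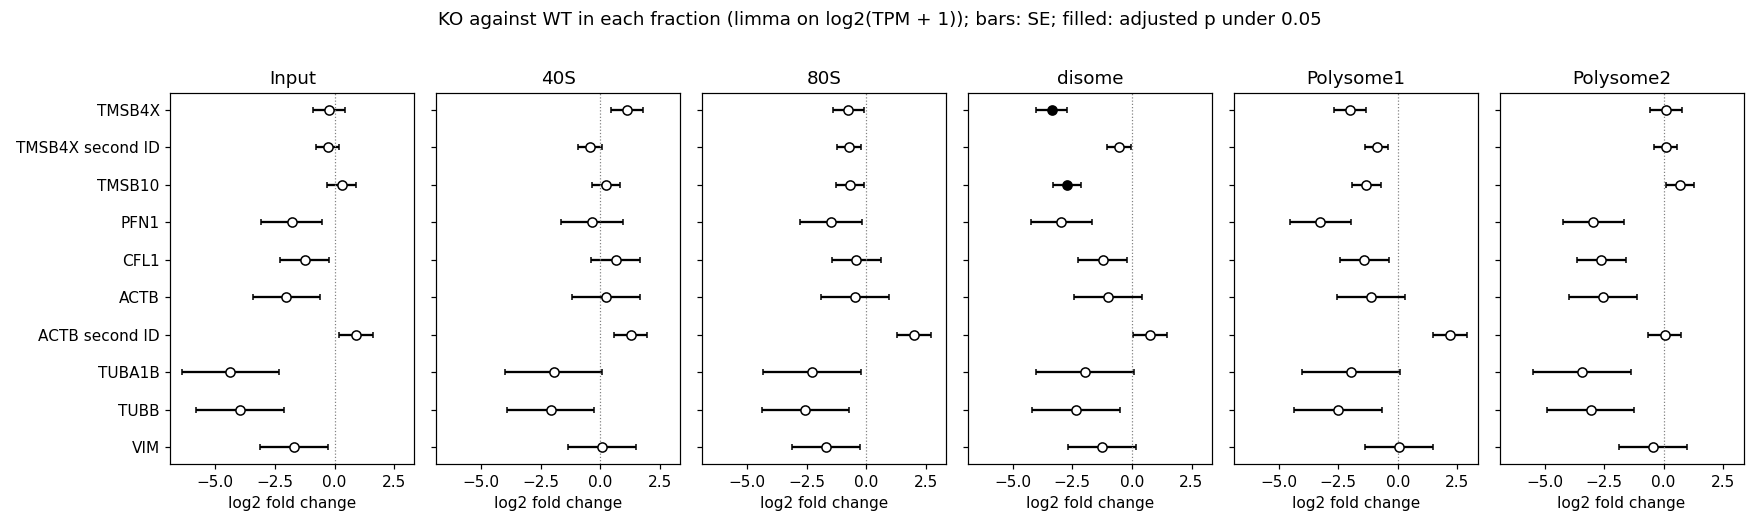
Log2 fold change of KO over WT for the 10 tested IDs in each fraction, from limma on log2(TPM + 1), with bars of 1 SE; filled points have an adjusted p under 0.05. Only TMSB4X at -3.37 and TMSB10 at -2.72 in the disome are filled, and the SE of the tubulins is the widest of the members.

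Leaving out KO culture 3 raised the number of calls in the whole table in all 6 kinds of library. In 40S limma then called 0 members and 2.43% of all transcripts, with 3 members at an unadjusted p under 0.05. In the other 5 the calls included members. The KO comparisons share no libraries between fractions but share cultures. In Input 3 members then fell, namely PFN1, TUBA1B and TUBB, where 45.0% of all transcripts passed. TUBA1B was at -6.50 (limma adjusted p = 0.000179) and TUBB at -5.87 (limma adjusted p = 0.000117) in that fit. In 80S 4 members passed against 22.9% of all transcripts. TUBA1B, TUBB and the rarer TMSB4X ID fell and the rarer ACTB ID rose. In the disome 6 members fell against 30.1% passing, namely the thymosins with both TMSB4X IDs, PFN1 and the tubulins. In Polysome1 7 passed against 36.5%. TMSB10, both TMSB4X IDs, PFN1 and the tubulins fell and the rarer ACTB ID rose. In Polysome2 5 members fell against 34.3%, namely PFN1, CFL1, ACTB and the tubulins.

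The WT fractions were compared with WT Input, and Polysome2 with 80S, to place the members along the gradient of unmodified cells. These comparisons share WT libraries. In WT 40S against WT Input, 3 of 10 members fell, where 42.5% of all tested transcripts fell. ACTB was at 645, 578 and 11.2 TPM in 40S and at 3425, 3477 and 3217 TPM in Input (log2 fold change -4.35, SE 1.42, limma adjusted p = 0.0144). TMSB4X was at -2.27 (SE 0.66, limma adjusted p = 0.00688) and its rarer ID at -2.20 (SE 0.49, limma adjusted p = 0.000727). In WT 40S that rarer ID was at 1.27, 1.07 and 0.818 TPM, near the added 1. Of TMSB10 the value was -0.89 (SE 0.60, limma adjusted p = 0.239). These calls turned with the scaling. Under median-of-ratios scaling 31.4% of all transcripts passed, with 2 members higher in 40S and 0 lower, TMSB10 among the higher ones at 1.76 (limma adjusted p = 0.00318). TMSB4X was then at 0.39, its rarer ID at -0.29 and ACTB at -1.73, none of which passed.

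The WT 40S library of culture 3 weighed on that result. Without it 1 member passed, the rarer TMSB4X ID, where 32.1% of all transcripts did, and ACTB was at -2.46 (limma adjusted p = 0.191), TMSB4X at -1.75 (limma adjusted p = 0.0624). With culture as a block, 8 members fell, all tested ones but TMSB10 and the rarer ACTB ID, and 53.9% of all transcripts passed.

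In WT 80S against WT Input no member passed and none had an unadjusted limma p under 0.05, while 22.4% of all transcripts passed. TMSB10 was at 1.09 (SE 0.60, limma adjusted p = 0.1995), ACTB at -2.01 (SE 1.42, limma adjusted p = 0.343) and TUBA1B at -2.56 (SE 2.05, limma adjusted p = 0.414). The KO libraries also enter the spread in the fit to all libraries. In a fit to the WT 80S and Input libraries alone, TMSB10 rose (limma adjusted p = 0.0394) and ACTB and TUBA1B fell (limma adjusted p = 0.00738 and 0.0223), where 33.0% of all transcripts passed.

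In WT Polysome2 against WT Input, 1 of 10 members fell, the rarer TMSB4X ID at -2.16 (SE 0.49, limma adjusted p = 0.00312), where 8.81% of all transcripts fell. That call was lost without WT culture 1 (limma adjusted p = 0.0762, 6.28% of all passing) or WT culture 2 (limma adjusted p = 0.0533, 5.41% passing), and the ID was at 0.80 with ERCC scaling, where 6 members rose, 0 fell and 64.3% of all transcripts passed. TMSB4X was at -1.34 (SE 0.66, limma adjusted p = 0.214), TMSB10 at -1.09 (SE 0.60, limma adjusted p = 0.271), PFN1 at 1.17 (SE 1.29, limma adjusted p = 0.664) and CFL1 at 1.74 (SE 1.03, limma adjusted p = 0.319). In a fit to the compared libraries alone, 6 members passed, where 18.4% of all transcripts did. Both TMSB4X IDs and TMSB10 fell, and PFN1, CFL1 and the rarer ACTB ID rose.

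In WT Polysome2 against WT 80S, 2 of 10 members fell, where 4.44% of all transcripts fell. TMSB10 was at 1067, 929.27 and 1004 TPM in Polysome2 and at 4155, 4192 and 5422 TPM in 80S (log2 fold change -2.19, SE 0.60, limma adjusted p = 0.0178). The rarer TMSB4X ID was at -1.88 (SE 0.49, limma adjusted p = 0.0147), and the main one at -1.49 (SE 0.66, limma adjusted p = 0.125). As given above, the Polysome2 levels of the rarer ID lay near the added 1. Leaving out WT culture 1, 2 or 3 gave 0 called members each time, where 0.911%, 1.51% and 3.01% of all transcripts passed with limma. With ERCC scaling the log2 fold change of TMSB10 was 0.05, and 3 members were called higher and 0 lower, where 55.2% of all transcripts passed. Opposite in sign were ACTB at 2.87 (SE 1.42, limma adjusted p = 0.170), CFL1 at 2.26 (SE 1.03, limma adjusted p = 0.135) and TUBA1B at 2.02 (SE 2.05, limma adjusted p = 0.535), none of which passed. In a fit to the compared libraries alone, 7 members passed against 27.0% of all transcripts, with both TMSB4X IDs and TMSB10 lower and PFN1, CFL1 and both ACTB IDs higher in Polysome2. With culture as a block, 5 members passed against 30.4% of all transcripts, both TMSB4X IDs and TMSB10 lower and CFL1 and ACTB higher.

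Whether the genotypes differed in how Polysome2 related to Input was tested as an interaction term. No member passed and none had an unadjusted limma p under 0.05, while 2.31% of all transcripts passed. The most negative estimate was that of CFL1, -1.37 (SE 1.46, limma adjusted p = 0.864), and the most positive that of VIM, 1.23 (SE 2.02, limma adjusted p = 0.930). The corresponding term for the disome was not tested.

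Over the 12 group means of log2(TPM + 1), which share libraries and total scaling, TMSB4X and TMSB10 correlated at Pearson r = 0.937, CFL1 and ACTB at 0.932 and PFN1 and CFL1 at 0.917. TMSB10 and TUBA1B correlated at 0.138. PFN1 stood between, at 0.661 with TMSB4X and 0.847 with TUBA1B. Among 51042 tested transcripts outside the list, 297 (0.582%) had r of at least 0.9 with TMSB4X and 212 (0.415%) with TMSB10. For PFN1 there were 3630 (7.11%), for CFL1 1865 (3.65%), for ACTB 3635 (7.12%) and for TUBA1B 2867 (5.62%). TUBB and VIM were not counted. The transcripts with the highest mean r over these 6 genes were ENST00000361538 (0.807) and ENST00000084798 (0.805), among 7528 with a mean of at least 10 TPM.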

How the data were processed

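The authors deposited TPM values for 36 libraries, estimated per transcript with kallisto and handled with sleuth on build hg19, per the submitters' processing notes; versions are not given in the sources used here. Per the labels' protocols, libraries were stranded and poly(A)-selected and were read from both ends at 75 nt. Since TPM keeps no depth, precision from counting is unknown here. Ensembl IDs could not be paired with gene symbols from the tables used, so the members carry the names of the rule that listed them, and planned lists of other cytoskeletal genes and of cell type markers were not analysed here. The members and lists were chosen with earlier results of these data known.

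Rows of 92 ERCC controls were set aside. Transcripts reaching 1 TPM in 3 or more libraries were tested as log2(TPM + 1) with limma 3.58.1 (R 4.3.3): 12 group means, a variance trend, 24 residual degrees of freedom, and Benjamini-Hochberg adjustment over 51052 transcripts within each comparison, with a threshold of 0.05. The planned test for counts was replaced by the one planned for TPM. Since libraries of 1 culture share a source, which the descriptions name, culture was also fitted as a block (duplicateCorrelation, consensus correlation 0.326). Deviations of KO and WT libraries of the same number correlated between -0.709 and 0.107. With 3 libraries a group, this cannot show whether cultures of the same number were handled together. The main fit did not pair genotypes by number. Within a culture, a fraction and Input correlated between 0.294 and 0.705 in KO and between -0.122 and 0.213 in WT. All member IDs were named; likeness to other transcripts was counted at r of at least 0.9. Alternatives were another pseudocount, filters, scalings (median of ratios, quantile, ERCC), blocks and left-out libraries. The fit was tested on simulated data. Python 3.11.15 with pandas 2.3.3, numpy 2.4.6 and matplotlib 3.10.9 made tables and figures.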

Additional observations from a re-analysis of the deposited data

Results flagged for a closer look

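For 8 of 64 ratios between fractions (8 genes, 8 ratios each), all 3 KO cultures lay on one side of 1 and all 3 WT cultures on the other. None of these differences was tested, and the values given first are the mean KO ratio divided by the mean WT ratio. How often such a split occurred among all tested transcripts was not counted. The number is therefore not shown to be particular to the members. For TMSB4X, disome over Input gave 0.168 (0.0887 to 0.913 in KO cultures, 3.01 to 4.81 in WT cultures). For TMSB4X, Polysome1 over Input gave 0.293 (0.590 to 0.843 in KO, 2.10 to 2.72 in WT), and Polysome1 over 80S gave 0.399 (0.741 to 0.992 in KO, 1.33 to 2.86 in WT). For PFN1, disome over 80S gave 0.382 (0.391 to 0.987 in KO, 1.55 to 2.33 in WT). For CFL1, 80S over Input gave 1.80 (1.05 to 1.58 in KO, 0.624 to 0.755 in WT). For TUBB, Polysome1 over Input gave 3.05 (1.25 to 2.40 in KO, 0.355 to 0.664 in WT), where 2 of the KO cultures had the TUBB ID followed here under 10 TPM throughout. For VIM, Polysome1 over 80S gave 4.05 (1.65 to 5.41 in KO, 0.730 to 0.785 in WT) and Polysome2 over Input gave 2.47 (1.18 to 2.25 in KO, 0.483 to 0.770 in WT). Groups of 3 were too small for a check of single outlying libraries.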

How the results depend on the processing

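Alternatives gave 188 counts of called members or levels, of which 138 stayed within 1.5 times the main value, 47 did not and 3 turned direction, and 650 fold changes of single members, of which 536 kept direction and side of the threshold, 63 passed newly, 32 were lost and 19 turned sign. The 138 include main counts of 0 that stayed at 0. That number therefore does not show that the calls themselves were stable. Main counts in KO against WT were 0 in Input, 0 in 40S, 0 in 80S, 2 in the disome, 0 in Polysome1 and 0 in Polysome2; in WT they were 3 for 40S over Input, 0 for 80S over Input, 1 for Polysome2 over Input and 2 for Polysome2 over 80S.

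In what follows the percentage after a count is that of all tested transcripts called. Median-of-ratios scaling gave 1 lower in the disome (0.157%), 1 lower in Polysome1 (1.13%), 1 higher for WT 80S over Input (18.7%), 2 lower for WT Polysome2 over Input (9.58%) and, turned in direction, 2 higher for WT 40S over Input (31.4%). Quantile normalization gave 2 lower in Polysome1 (1.73%). Scaling to ERCC gave 2 in Input (13.5%), 3 in 80S (24.0%), 5 in the disome (53.5%), 9 in Polysome1 (76.7%), 10 in Polysome2 (76.4%) and 6 for WT 40S over Input (28.9%), all lower. It turned 2 directions, with 6 higher for WT Polysome2 over Input (64.3%) and 3 higher for WT Polysome2 over 80S (55.2%). The members' summed level in WT disome over Input was then 16.5, relative to ERCC and no longer a share. That mean joins unlike cultures, since the ERCC factors of cultures 1, 2 and 3 were 1.263, 1.655 and 0.3321 in WT Input. In WT disome they were 0.2077, 0.1473 and 0.1962. The median over all tested transcripts in KO against WT (log2) with ERCC scaling was -2.02 in the disome and -3.40 in Polysome2, against -0.45 and -0.22 without that scaling. Fits to the compared libraries gave 0 in the disome (0.00%), 3 for WT 80S over Input (33.0%), 6 for WT Polysome2 over Input (18.4%) and 7 for WT Polysome2 over 80S (27.0%). In KO against WT these fits called 0 of all transcripts in 40S, 80S, Polysome1 and Polysome2, while 35 fell and 5 rose in Input. With culture as replicate block, counts were 2 in Input (23.0%), 3 in Polysome1 (11.4%), 1 in Polysome2 (11.6%), 8 for WT 40S over Input (53.9%) and 5 for WT Polysome2 over 80S (30.4%), and no other count left the 1.5 times. With replicate number as a fixed block, the count was 2 in Polysome1, where 3995 of all 51052 transcripts fell and 1675 rose. The labels do not say whether that number pairs KO with WT. Without the KO disome library of culture 1, and without KO cultures 1 and 2, the disome count was 0. Without the WT 40S library of culture 3 (added after seeing the data), WT 40S over Input gave 1. Summing the IDs of a gene, which leaves fewer members, gave 0 for WT Polysome2 over Input and 1 for WT Polysome2 over 80S. Of the 51050 transcripts then tested, 4498 fell and 1672 rose in the former, and 2266 fell and 4405 rose in the latter.

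Leaving out 1 culture at a time, counts ranged from 0 to 3 in Input, 0 to 0 in 40S, 0 to 4 in 80S, 0 to 6 in the disome, 0 to 7 in Polysome1 and 0 to 5 in Polysome2. Each highest count above 0 came without KO culture 3. Of all transcripts, 45.0% then passed in Input, 22.9% in 80S, 30.1% in the disome, 36.5% in Polysome1 and 34.3% in Polysome2. Without KO culture 2, 20 of all 51052 transcripts fell in Polysome1 and 7 rose. In WT, member counts ranged from 1 to 8 for 40S over Input, 0 to 1 for 80S over Input, 0 to 3 for Polysome2 over Input and 0 to 4 for Polysome2 over 80S, the interaction stayed at 0, and the share in WT disome over Input ranged from 2.31 to 2.71. The count of 8 was reached without KO culture 3, where 25695 of all transcripts fell and 588 rose. Calls over all 51052 transcripts moved too. Over these left-out cultures, those falling ranged from 3921 to 13675 for WT 80S over Input. For WT Polysome2 over Input they ranged from 2286 to 6573, and for WT Polysome2 over 80S from 163 to 4223. Those rising ranged from 406 to 2816, 465 to 3049 and 302 to 10036 in the same order.

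Over all tested members, 140 of 1808 fold changes turned sign under an alternative, 35 of them with ERCC scaling, 31 without KO cultures 1 and 2 and 20 with median-of-ratios scaling. Of the 126 from fold changes that were called, 3 turned, all given here. The sign changes among fold changes followed by name are these, and their cause was not tested. In Input TMSB4X was at 0.41 with median-of-ratios scaling, 0.034 without KO culture 1 (-0.42 without KO culture 3) and 0.15 without KO Input libraries or KO cultures 1 and 2. With ERCC scaling TMSB10 was at -2.78 in Input and -4.66 in Polysome2, TMSB4X at -1.90 in 40S, and the rarer ACTB ID at -0.73 in 80S and -1.83 in Polysome1. TUBA1B in Polysome2 was at 0.029 without KO cultures 1 and 2. For WT 40S over Input, median-of-ratios scaling gave TMSB4X 0.39 and TMSB10 1.76. ERCC scaling gave 2.58, 0.80 and 2.82 for TMSB4X, its rarer ID and TMSB10 in WT Polysome2 over Input, and 0.74 and 0.050 for TMSB4X and TMSB10 in WT Polysome2 over 80S. The interaction of VIM was at -1.44 with ERCC scaling and -1.14 without KO Input libraries 1 and 2.

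Of all called transcripts, those lower and higher numbered 21694 and 353 in WT 40S over Input, against 10588 and 5424 with median-of-ratios scaling, and 2267 and 4406 in WT Polysome2 over 80S, against 3662 and 1985 with that scaling. Depth is unknown for every value.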
